A study of Mus musculus with 5 samples.

Results

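The library labelled P was compared with the library labelled EV, the 2 of the 5 libraries of this RNA-seq series that the labels give as a Prep1-overexpressing line and an empty vector line. All 5 libraries came from C57BL/6 mouse embryonic fibroblasts (MEFs), connective-tissue cells grown out of E14.5 embryos and harvested at passage 30. EV, M, P and MP were all made in Prep1-hypomorphic MEFs, whose Prep1 allele gives little product. By the labels EV carries the empty vector, M overexpresses Meis1, P overexpresses Prep1 and MP overexpresses both; the Pknox1 values below go against this for P and MP. WT is a Prep1 wild-type line whose label names no vector, although the growth protocol shared by all samples speaks of hypomorphic embryos. Each group held 1 library, so nothing below could be checked against a replicate, no p-value is given, and each ratio compares a pair of libraries, not of conditions. How deeply each library was read is unknown. Of 61082 loci in the table that pairs EV with P, the 22894 that carry 1 gene symbol were used.

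Prep1, encoded by Pknox1, and Meis1 are homeodomain transcription factors of the TALE class, which bind DNA as partners of the Pbx proteins. In tumour biology Prep1 is known as a suppressor and Meis1 as an oncogene, and both compete for Pbx partners. AP-1, the dimer of Fos, Jun, Atf and Maf proteins, binds sites near genes of growth and invasion, and the title of the series names weak AP-1 sites as the place where the factors act.

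The values are FPKM, read fragments corrected for transcript length and for the size of the library. The 75th percentile of the single-gene loci was 174 FPKM in EV and 11.6 FPKM in P, a ratio of 15. Each library was therefore scaled to a 75th percentile of 10, and every level below is in these scaled units. A difference is log2((P + 1)/(EV + 1)), which understates changes of low genes, and a gene was kept at 1 unit or more in either library. Genes listed at 0 made up 2.18% in EV and 24.6% in P. Of 1396 genes for odorant and pheromone receptors, which belong to neurons of the nose, 99.9% were above 0 in EV and 10.6% in P, against 69.9% in M, 12.5% in MP and 16.6% in WT. In this background signal the EV and M libraries stood apart from the other 3. Where a gene has the same split, the part of the added Prep1 cannot be told apart from that of the background.

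Pknox1 did not follow the label. Its level was 2.16 in EV, 0.553 in P, 3.24 in M, 0.568 in MP and 11.0 in WT. The 2 libraries labelled as overexpressing Prep1 held the lowest Pknox1 values of the 5, and the log2 ratio of P over EV was -1.02. This ratio was under 2-fold in 4 of the alternative processings, down to -0.80 with the receptor background subtracted. Nothing states whether a vector-borne coding sequence was counted at this locus, so the name "the library labelled P" is kept. Meis1 stood at 8.30 in EV, 8.85 in P, 16.8 in M, 15.4 in MP and 12.4 in WT, with a ratio of 0.08 for P over EV. Both libraries labelled with Meis1 were the highest for it. Of the 11 kept TALE genes, Pknox1 alone was 2-fold apart with the pseudocount, against 2.53% of all kept genes. Its close relative Pknox2, at 4.13 in EV and 2.02 in P, was past 2-fold by level only. Meis2 was at 9.21 and 13.3.

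Across the 11163 kept genes the libraries lay close together. The median log2 ratio was -0.05, the quartiles were -0.23 and 0.13, and 89.4% of genes were within 0.5 of 0. The ratio was above 0 in 41.9% of genes. At least 2-fold higher in P were 74 genes (0.663%), and at least 2-fold lower were 208 (1.86%), together 2.53%. Most of these genes were low in the library where they were lower. The median of the 74 higher genes was 1.28 in EV and 5.59 in P, with 31 of them under 1 unit in EV. The median of the 208 lower genes was 2.68 in EV and 0.101 in P, with 153 under 1 unit in P and 63 listed at 0 there. Both libraries were at 5 units or more for 1 of the higher and 16 of the lower genes. With genes kept at 5 units or more in either library, 43 of 8711 genes (0.494%) were higher and 57 (0.654%) lower, together 1.15%, so the excess of lower genes came mainly from low values. With the receptor background subtracted from each library the counts were 98 higher and 110 lower, and as deposited they were 12 and 20839.

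**Figure D1:**
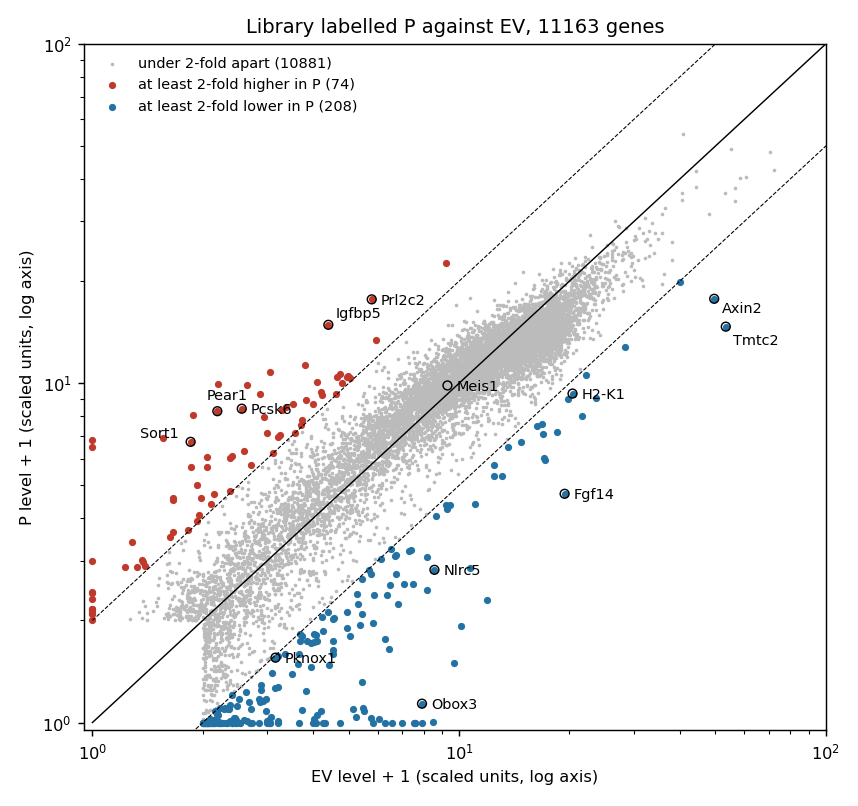
Level of each of the 11163 kept genes in EV (x axis) and in the library labelled P (y axis), in scaled units plus 1, both axes logarithmic; the dashed lines mark 2-fold. The 74 higher genes (red) start from low EV levels, Axin2 and Tmtc2 lie far below the diagonal at high EV levels, and Pknox1 lies on the lower side near the line.

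Secreted carriers of the IGF system were among the higher genes. Igfbp5, which binds insulin-like growth factors and fixes them to the matrix, was at 3.40 in EV, 13.9 in P, 6.69 in M, 13.8 in MP and 9.13 in WT (log2 ratio 1.76). P and MP were equally high and EV was the lowest of the 5. Igfbp4, another carrier of these growth factors, was at 4.95 in EV, 12.4 in P, 5.04 in M, 8.76 in MP and 12.1 in WT (1.17). EV and M were alike and P and WT were alike. The other members of the system were closer to EV. Igf1, the ligand, stood at 2.14 in EV and 1.20 in P (-0.51), the stanniocalcin Stc1 at 7.11 and 5.18, and the receptor Igf1r at 13 and 12.1. Of 12 kept members 2 were 2-fold higher and 0 lower, against 0.663% and 1.86% of all kept genes. The median of -0.04 took the other sign in 3 of 8 alternatives.

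Proteins that sort or cut other secreted proteins came next. Sort1 encodes sortilin, a sorting receptor of the Golgi and endosomes. Its level was 0.853 in EV, 5.72 in P, 0.572 in M, 5.68 in MP and 4.19 in WT (1.86). The 3 libraries other than EV and M were several times above both. Its relatives Sorcs1 (8.50 in EV and 6.96 in P) and Sorcs2 (16.4 and 18.4) were not 2-fold apart. Pcsk6, a proprotein convertase that activates growth factor precursors, was at 1.55 in EV, 7.41 in P, 1.8 in M, 4.77 in MP and 6.12 in WT (1.72). The same split was present, whereas the other kept convertases, Mbtps1 (-0.35), Pcsk7 (-0.17) and Pcsk4 (0.33), stayed within 2-fold. Pear1, a transmembrane receptor with EGF-like repeats, had the highest ratio among the named genes. It stood at 1.19 in EV, 7.27 in P, 0.730 in M, 3.50 in MP and 9.63 in WT (1.92). Its relatives Megf10 (0.63) and Scarf2 (0.48) were above EV by less than 2-fold. As deposited, before scaling, Sort1 was at 14.8 FPKM in EV and 6.64 in P. All of the 20 genes with the highest ratios at 5 units or more were likewise lower in P as deposited. Their calls as higher thus rest on the scaling.

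Among the 20 highest ratios at 5 units or more, genes of metabolism and transport were also present. Slco4a1, an organic anion transporter, was at 2.04 in EV, 9.76 in P, 3.28 in M, 3.76 in MP and 16.5 in WT (1.82). Smox, which oxidises spermine, was at 1.05 in EV, 5.05 in P, 1.34 in M, 2.19 in MP and 11.6 in WT (1.56). Both were highest in WT, with P second, and both carried the authors' test status FAIL, which Cuffdiff gives where its test could not be computed. Akr1c18, a steroid dehydrogenase that inactivates progesterone, was at 2.81 in EV, 10.3 in P, 6.90 in M, 10.3 in MP and 3.52 in WT (1.57). P, MP and M were all more than 2-fold above EV by level, and WT was not. Prl2c2, the secreted hormone proliferin of growing fibroblasts, was at 4.78 in EV, 16.7 in P, 5.76 in M, 11.7 in MP and 20.9 in WT (1.61). Prl2c1 of the same family was higher too (0.378 in EV and 1.96 in P, 1.11), while the prolactin receptor gene Prlr was lower (1.20 and 0.0538, -1.06). The Prl2c copies are near-identical, so the split of reads among them is uncertain. U90926 stood at 1.64 in EV, 8.88 in P, 3.63 in M, 5.37 in MP and 8.56 in WT (1.90).

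Some genes passed 2-fold in the library labelled P and, with the pseudocount, in no other. Anxa8, a membrane-binding annexin, was at 1.87 in EV, 8.31 in P, 0.917 in M, 2.96 in MP and 2.90 in WT (1.70). It was the 1 annexin of 10 kept that was 2-fold apart, against 2.53% of all kept genes. The median of that list was -0.22. Mpp3, a scaffold protein of cell junctions, was at 2.28 in EV, 7.35 in P, 2.54 in M, 4.15 in MP and 2.67 in WT (1.35). Prnd, which encodes the prion-like protein doppel, was at 1.37 in EV, 5.03 in P, 1.17 in M, 2.25 in MP and 0.564 in WT (1.34). For each of these 3 genes the P library was the highest and MP the second. Ctsw, a cathepsin, was at 2.37 in EV, 7.53 in P, 2.61 in M, 3.35 in MP and 2.45 in WT (1.34). The forkhead factor gene Foxq1 was at 1.59 in EV, 5.31 in P, 0.922 in M, 2.02 in MP and 1.47 in WT (1.28). Acta1, the actin of skeletal muscle, was at 1.41 in EV, 5.10 in P, 0.896 in M, 1.78 in MP and 2.96 in WT (1.34, status FAIL). The muscle regulators Myod1, Myog and Myf5 were listed at 0 in P.

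Transcription factors and signalling modulators made up the rest of the 20 highest. Sox11, a factor of progenitor cells, was at 2.52 in EV, 7.68 in P, 2.98 in M, 8.11 in MP and 5.97 in WT (1.3). Atoh8, a basic helix-loop-helix factor, was at 2.81 in EV, 7.91 in P, 3.99 in M, 4.99 in MP and 7.90 in WT (1.22). Tmem176a, which encodes a membrane protein, was at 3.10 in EV, 9.07 in P, 2.81 in M, 3.11 in MP and 12.5 in WT (1.3). Sox11 thus went with MP, while Atoh8 and Tmem176a went with WT. By the same rule Perp, a desmosomal protein induced by p53, led the remaining genes that passed 2-fold in P and, with the pseudocount, in no other library. Perp was at 0.655 in EV, 3.59 in P, 0.137 in M, 2.06 in MP and 0.0193 in WT (1.47). Rasl12, a small GTPase of the Ras family, was at 1.06 in EV, 4.65 in P, 0.413 in M, 2.51 in MP and 3.05 in WT (1.46).

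**Figure D2:**
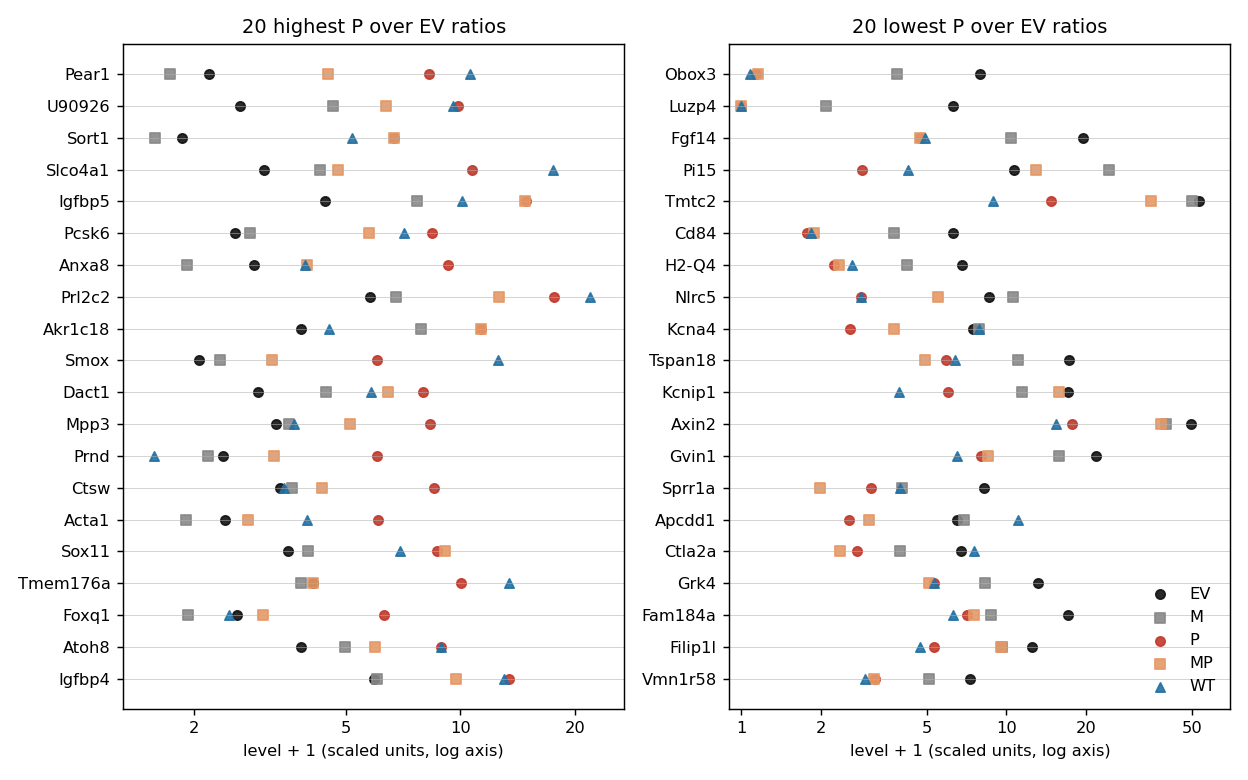
Levels (scaled units plus 1, log axis) of the 20 genes with the highest and the 20 with the lowest P over EV ratios, 1 symbol per library and no error bars because each group is 1 library; where 2 libraries coincide the later symbol covers the earlier. MP (orange) covers P (red) at Sort1, Igfbp5 and Akr1c18, and P stands to the right of every other library at Anxa8, Mpp3, Prnd, Ctsw, Acta1 and Foxq1.

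Promoter windows from RefSeq (GRCm38.p6, from 250 bases before to 50 after the start) were found for 31 of the 42 genes looked up, namely the 20 highest, the 20 lowest, Pknox1 and Meis1. The motifs were searched on both strands, the AP-1 site TGANTCA, the TALE core TGACAG and the Pbx-TALE site TGATTGA. Each taken alone, they occur in 7.93%, 19.3% and 2.68% of all 27025 windows, over the full 300 bases. Of the 31 genes, 11 had any of the motifs in the 250 bases before the start and 20 had none, Igfbp5, Pcsk6 and Meis1 among the latter. The share of all windows with any motif before the start was not computed. The 11 of 31 therefore cannot be set against the shares above. Windows existed for 56.8% of the higher and 60.6% of the lower genes, too few to compare shares of motifs between these groups and all genes, so that comparison is void.

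All 15 stretches that hold a motif before the start are shown, on the strand of the gene, 5′ to 3′, with the motif in capitals. The 5 higher genes each hold a TALE core, and Anxa8 also holds the Pbx-TALE site. CTGTCA is the TALE core read on the opposite strand.
Pear1 chr3:87769060-87769119 (minus strand): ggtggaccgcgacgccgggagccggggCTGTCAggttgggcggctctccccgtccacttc
Slco4a1 chr2:180456179-180456238 (plus strand): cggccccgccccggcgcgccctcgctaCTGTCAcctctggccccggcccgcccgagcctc
Anxa8 chr14:34085729-34085779 (plus strand): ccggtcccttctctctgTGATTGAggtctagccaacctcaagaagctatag
Anxa8 chr14:34085796-34085855 (plus strand): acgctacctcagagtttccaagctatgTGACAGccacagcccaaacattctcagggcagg
Smox chr2:131491642-131491701 (plus strand): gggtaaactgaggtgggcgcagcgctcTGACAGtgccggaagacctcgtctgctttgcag
Dact1 chr12:71309738-71309797 (plus strand): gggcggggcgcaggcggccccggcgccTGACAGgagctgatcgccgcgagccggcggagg
Of the 6 lower genes, Kcna4 and Kcnip1 hold a TALE core, Axin2 holds the Pbx-TALE site on the opposite strand (TCAATCA), and Cd84 and Ctla2a hold an AP-1 site. Sprr1a holds both the TALE core and the AP-1 site, each in 2 places.
Axin2 chr11:108920151-108920211 (plus strand): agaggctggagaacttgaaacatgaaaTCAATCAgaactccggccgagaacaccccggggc
Kcna4 chr2:107290521-107290580 (plus strand): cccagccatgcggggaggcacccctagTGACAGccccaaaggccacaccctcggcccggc
Kcnip1 chr11:33993194-33993235 (minus strand): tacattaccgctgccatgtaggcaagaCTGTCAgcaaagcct
Sprr1a chr3:92486072-92486131 (minus strand): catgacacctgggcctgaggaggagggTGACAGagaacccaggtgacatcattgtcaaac
Sprr1a chr3:92486040-92486099 (minus strand): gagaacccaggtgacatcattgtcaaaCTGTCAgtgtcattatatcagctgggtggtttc
Sprr1a chr3:92485994-92486054 (minus strand): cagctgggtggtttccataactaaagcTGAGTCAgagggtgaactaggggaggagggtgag
Sprr1a chr3:92485964-92486024 (minus strand): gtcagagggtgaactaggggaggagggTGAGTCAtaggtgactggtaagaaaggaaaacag
Cd84 chr1:171839447-171839501 (plus strand): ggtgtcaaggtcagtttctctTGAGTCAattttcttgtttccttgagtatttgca
Ctla2a chr13:60936721-60936781 (minus strand): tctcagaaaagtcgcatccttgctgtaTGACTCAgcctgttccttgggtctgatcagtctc
A match describes these letters only. No window was found for Sort1, Prl2c2, Mpp3, Ctsw, Foxq1, Pi15, Nlrc5, Tspan18, Gvin1, Apcdd1 and Pknox1.

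The Wnt pathway, in which secreted ligands act through Frizzled and Lrp receptors to switch on feedback inhibitors such as Axin2, had members on both sides. Axin2, a scaffold of the complex that degrades beta-catenin, was at 48.6 in EV, 16.7 in P, 39.0 in M, 37.3 in MP and 14.4 in WT (-1.48). EV was the highest, and P and WT were well below the other libraries. Apcdd1, an inhibitor at the receptor, was at 5.49 in EV, 1.54 in P, 5.89 in M, 2.03 in MP and 10.1 in WT (-1.35). Rspo2, a secreted amplifier of Wnt signals, was at 8.22 in EV, 3.38 in P, 5.23 in M, 6.40 in MP and 6.51 in WT (-1.07). Here P was the lowest library. In the opposite direction, Dact1, an intracellular Wnt modulator, was at 1.94 in EV, 6.97 in P, 3.45 in M, 5.47 in MP and 4.84 in WT (1.44). Notum, a secreted enzyme that inactivates Wnt ligands, was at 0.930 in EV, 2.94 in P, 2.54 in M, 2.57 in MP and 4.48 in WT (1.03). EV was the lowest of the 5 for both modulators.

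Among Wnt ligands, Wnt10a was at 0.282 in EV, 2.41 in P, 0.133 in M, 1.0 in MP and 0.130 in WT (1.41). Wnt11 was at 0.369 in EV, 2.02 in P, 0.337 in M, 0.736 in MP and 0.615 in WT (1.14). Both were highest in P, at low levels. The more abundant ligands Wnt10b (6.26 in EV and 10.9 in P) and Wnt5a (9.58 and 6.92) were within 2-fold. Of 7 kept ligands 2 were higher and 0 lower, and of 18 receptors and amplifiers 0 and 1. Of 11 antagonists and feedback targets 2 were higher and 2 lower. The shares over all kept genes were 0.663% higher and 1.86% lower. The list medians were -0.18, 0.02 and 0.12, against -0.05 for all kept genes. They took the other sign in 1 of 6, 1 of 8 and 2 of 8 alternatives. Wnt10a, Wnt11 and Notum were under 1 unit in EV. The filter thus kept them through P, and they could only come out higher.

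The lowest ratios were led by genes that were highest in EV, lower in M and near 0 in the other 3 libraries. Obox3, an oocyte homeobox gene, was at 6.92 in EV, 0.137 in P, 2.87 in M, 0.158 in MP and 0.0790 in WT (-2.80). Luzp4, a gene of germ cells, was at 5.29 in EV and 1.09 in M and was listed at 0 in P, MP and WT. Rhox8 (4.46 in EV and 0.101 in P) and Rex2 (4.14 and 0.0973) of the same list were alike. Of 22 germline genes with a locus 5 were kept, and 4 of these were 2-fold lower in P, against 1.86% of all kept genes. All 4 were under 1 unit in P. The filter thus kept them through EV, and they could only come out lower. They were also lower in M, MP and WT. Vmn1r58, a vomeronasal receptor gene, was at 6.31 in EV, 2.20 in P, 4.09 in M, 2.17 in MP and 1.92 in WT (-1.19). The receptor families and these germline genes have near-identical copies, so their values are uncertain.

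Better expressed genes of ion channels and signalling were lower as well. Fgf14, an intracellular relative of the FGFs that binds sodium channels, was at 18.4 in EV, 3.72 in P, 9.42 in M, 3.70 in MP and 3.92 in WT (-2.04). Kcnip1, a calcium-binding partner of potassium channels, was at 16 in EV, 5.0 in P, 10.4 in M, 14.8 in MP and 2.93 in WT (-1.50). Kcna4, a potassium channel, was at 6.51 in EV, 1.57 in P, 6.89 in M, 2.77 in MP and 6.87 in WT (-1.55). P was the lowest library for Kcna4, and WT was close to EV. Pi15, a secreted protein of the CAP family, was at 9.71 in EV, 1.85 in P, 23.3 in M, 11.9 in MP and 3.25 in WT (-1.91). Tmtc2, an endoplasmic reticulum protein that adds mannose to cadherins, was at 52.4 in EV, 13.7 in P, 49.2 in M, 34.0 in MP and 7.92 in WT (-1.86). For Pi15, Tmtc2 and Kcnip1 the library labelled MP was within 2-fold of EV, and P and WT were more than 2-fold lower. Filip1l was at 11.4 in EV, 4.32 in P, 8.64 in M, 8.52 in MP and 3.73 in WT (-1.23). P and WT were again the lowest.

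The genes Tspan18, Gvin1, Grk4 and Fam184a were low in P, MP and WT together. Tspan18, a tetraspanin, was at 16.1 in EV, 4.92 in P, 10.0 in M, 3.92 in MP and 5.42 in WT (-1.53). Gvin1, a large interferon-induced GTPase, was at 20.7 in EV, 7.03 in P, 14.8 in M, 7.54 in MP and 5.51 in WT (-1.43, status FAIL). Grk4, a kinase of G-protein-coupled receptors, was at 12.1 in EV, 4.31 in P, 7.29 in M, 4.09 in MP and 4.32 in WT (-1.3). In each, M lay between EV and the other 3 libraries. Fam184a was at 16 in EV, 6.09 in P, 7.72 in M, 6.52 in MP and 5.29 in WT (-1.26). Ctla2a, a cysteine protease inhibitor, was at 5.75 in EV, 1.73 in P, 2.95 in M, 1.36 in MP and 6.57 in WT (-1.3). Unlike the others, it was higher in WT than in EV. Sprr1a, a protein of the cornified envelope of skin, was at 7.20 in EV, 2.09 in P, 3.03 in M, 0.975 in MP and 2.98 in WT (-1.41). EV alone was high.

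Genes of MHC class I antigen presentation, which display peptides of the cell to T cells, were below EV. Of 20 kept genes 0 were 2-fold higher and 7 lower, against 0.663% and 1.86% of all kept genes. Among the 7, H2-Q7, Tap1, Tap2 and Psmb8 were under 1 unit in P. The filter thus kept these genes through EV, and they could only come out lower. Below 0 were 19 of the 20, while 41.9% of all kept genes were above 0. The median was -0.47 against -0.05 for all kept genes. Nlrc5, the transactivator of class I genes, was at 7.57 in EV, 1.82 in P, 9.57 in M, 4.52 in MP and 1.83 in WT (-1.60, status FAIL). H2-K1, a classical class I heavy chain, was at 19.4 in EV, 8.32 in P, 14.6 in M, 8.95 in MP and 8.40 in WT (-1.13). P and WT were equally low for both. H2-Q4, a class I gene of the Q region, was at 5.81 in EV, 1.24 in P, 3.21 in M, 1.33 in MP and 1.60 in WT (-1.61), and H2-Q7 at 2.72 in EV and 0.795 in P (-1.05). Reads shared among class I genes make the single members uncertain.

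The peptide transporter and immunoproteasome genes had another order. Tap1 was at 3.43 in EV, 0.480 in P, 1.34 in M, 0.348 in MP and 3.78 in WT (-1.58). Tap2 was at 1.41 in EV, 0.202 in P, 0.523 in M, 0.297 in MP and 5.32 in WT (-1.0), a ratio that was under 2-fold in 3 alternatives. Psmb8, an immunoproteasome subunit, was at 1.93 in EV, 0.157 in P, 0.344 in M, 0.206 in MP and 1.34 in WT (-1.34). These 3 genes were low in M too and were near or above EV in WT. Psmb10, another immunoproteasome subunit, was the 1 member above 0 (1.64 in EV and 2.04 in P, 0.20). B2m, the light chain of every class I molecule, was at 16.9 in EV and 13.6 in P. No MHC class II gene was kept.

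Interferon response genes had a median of -0.52, with 32 of 35 kept genes below 0, while 41.9% of all kept genes were above 0. Of the 35 genes 0 were 2-fold higher and 2 lower, against 0.663% and 1.86% of all kept genes. Of these 2, Trim30a was under 1 unit in P, so the filter kept it through EV. Trim30a, a regulator of innate immune signalling, was at 3.54 in EV, 0.635 in P, 1.44 in M, 0.508 in MP and 1.97 in WT (-1.47, status FAIL). Trim25, a ubiquitin ligase that acts on the RNA sensor RIG-I, was at 5.13 in EV, 2.04 in P, 6.46 in M, 5.61 in MP and 4.54 in WT (-1.01). P was the lowest library for Trim25 only. The nucleic acid sensor Zbp1 stood at 4.11 in EV and 1.61 in P, Gbp6 at 1.43 and 0.241, and Parp14 at 3.98 and 1.71. The medians of the class I and interferon lists kept their sign in 8 of 8 alternatives, from -0.56 to -0.30 and from -0.58 to -0.33.

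Of 26 leukocyte markers 4 were kept, 2 of them 2-fold lower in P and 0 higher, against 1.86% and 0.663% of all kept genes. The other 2 were above EV by less than 2-fold. The lower ones, Cd84 and Fcgr3, were under 1 unit in P. The filter thus kept them through EV, and they could only come out lower. The summed level over all 26 markers was 28.1 in EV, 19.2 in P, 21.6 in M, 18.5 in MP and 18.3 in WT. Cd84, a receptor of the SLAM family, was at 5.29 in EV, 0.768 in P, 2.77 in M, 0.882 in MP and 0.836 in WT (-1.83). Fcgr3, an antibody receptor, was at 3.54 in EV, 0.743 in P, 1.44 in M, 0.326 in MP and 0.951 in WT (-1.38). Csf1r, a macrophage growth factor receptor, was at 1.89 in EV and 3.53 in P, and Cd14, a co-receptor for bacterial lipids, at 9.68 and 12. The pan-leukocyte gene Ptprc stood at 0.185 in EV and 0.0423 in P, and Emr1, Tyrobp, Cd3e and Ms4a1 were listed at 0 in P. No leukocyte marker was at 0 in EV, where the receptor genes were also above 0. Their part in the class I and interferon result was not tested. In RNA from whole cultures, fewer cells of a type and less RNA per cell cannot be told apart.

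**Figure D3:**
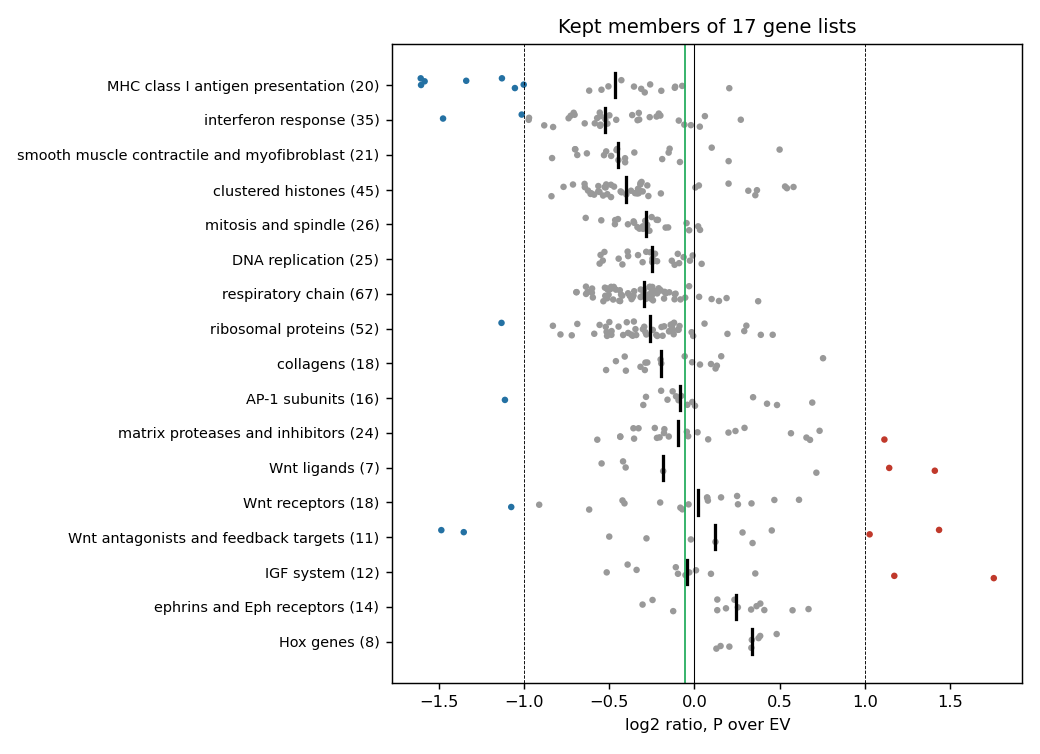
Log2 ratio of P over EV for each kept member (point, with red and blue for at least 2-fold higher and lower) of 17 gene lists, with the list median (black bar), the median of all kept genes (green line) and the 2-fold bounds (dashed lines). The MHC class I and interferon lists spread to the left with medians of -0.47 and -0.52, while the 8 Hox genes all lie right of 0.

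AP-1 subunits, the factors named in the title of the series, were near EV. Of 16 kept genes 0 were 2-fold higher and 1 lower, against 0.663% and 1.86% of all kept genes. The median of -0.08 took the other sign in 2 of 8 alternatives. Fosb was at 5.73 in EV, 2.11 in P, 3.20 in M, 4.35 in MP and 2.41 in WT (-1.11). It was under 2-fold in 2 alternatives, -0.97 with the receptor background subtracted and -0.96 with genes of status OK. The AP-1 relative Maf was at 5.40 in EV and 9.33 in P (0.69), Fos at 7.97 and 6.29 (-0.30), and Jun at 12.7 and 12.6. Of 20 kept immediate-early genes, which respond to growth signals within minutes, 0 were 2-fold apart, with Klf2 at 3.44 in EV and 1.27 in P (-0.97, past 2-fold at -1.37 with a pseudocount of 0.1 and -1.01 with quantile normalisation) and Egr3 at 3.09 and 5.50 (0.67). Matrix proteases and their inhibitors, many of them AP-1 targets, had 1 of 24 members 2-fold higher and 0 lower. The shares over all kept genes were 0.663% and 1.86%. Mmp10, a stromelysin, was at 0.326 in EV, 1.87 in P, 0.364 in M, 0.50 in MP and 3.10 in WT (1.11). Mmp3 (0.373 in EV and 1.28 in P) and Mmp9 (0.263 and 1.02) were also low genes, and the abundant gelatinase Mmp2 was at 18.8 in EV and 12.3 in P (-0.57).

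Genes of proliferation were slightly below EV, with 0 members 2-fold apart, while 41.9% of all kept genes were above 0. DNA replication genes had a median of -0.25, with 24 of 25 below 0, and mitosis genes -0.28, with 24 of 26 below 0. Top2a, a topoisomerase of dividing cells, was at 15.4 in EV and 9.52 in P (-0.64). Of the replication genes, Uhrf1 was at 18.8 and 12.5 (-0.56, status FAIL) and the helicase subunit Mcm3 at 17.6 and 11.7 (-0.55). Ribosomal proteins (-0.26, 46 of 52 below 0), the respiratory chain (-0.30, 62 of 67) and clustered histones (-0.40, 36 of 45) gave like medians. The medians of all 5 lists kept their sign in 8 of 8 alternatives. Inhibitors of cyclin-dependent kinases with p53 and Rb genes (26 kept, median -0.05) and DNA repair genes (25 kept, -0.07) had 0 members 2-fold apart.

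The ratio also moved with the level of a gene. The median log2 ratio was 0.12 at a mean level of 2 to 5 units (1460 genes) and 0.12 at 5 to 7.5 units (1225 genes). It was -0.04 at 10 to 12.5 units (2187 genes), -0.17 at 12.5 to 15 (2227 genes) and -0.22 at 15 to 20 (1031 genes). The median mean level was 14.4 units for DNA replication genes, 14.1 for mitosis genes, 14.2 for histones and 12.3 for the respiratory chain, within the range where the median of all genes was below 0. Ribosomal proteins, at 9.87 units, lay where that median was above 0 (0.07). It was 3.58 for the MHC class I list, 6.72 for the interferon list and 4.43 for the Hox genes, in the range where the median of all genes was above 0. The 99th percentile of the levels was 23.8 in EV and 20.6 in P. The part of this trend in the list medians was not tested.

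**Figure D4:**
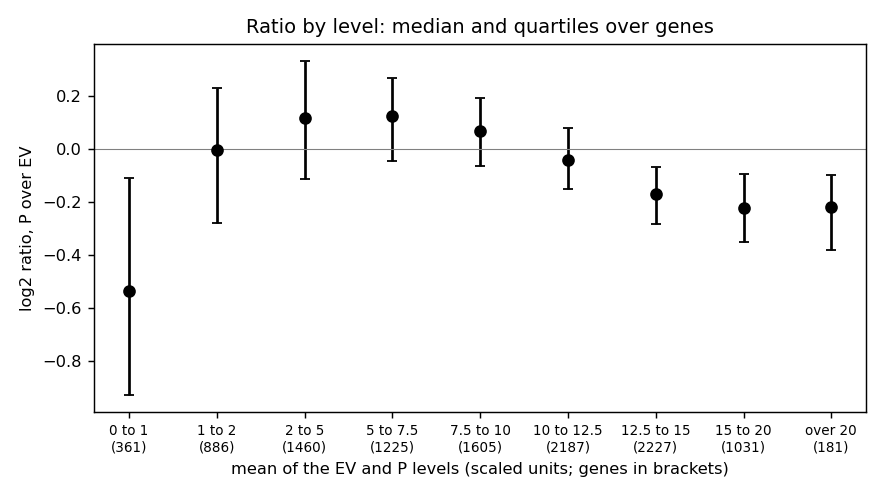
Median log2 ratio of P over EV (points) with quartiles over genes (bars) by the mean level of the gene in the 2 libraries, in scaled units with the number of genes in brackets. The median is -0.54 under 1 unit, 0.12 from 2 to 7.5 units and -0.22 above 15 units.

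Most fibroblast markers were present in both libraries, with 15 of the 20 at 1 unit or more in each. Under 1 unit in both were Fap, Dpt, Islr, Tcf21 and Meox2. Fap was at 0.134 in EV, 0.0356 in P and 3.49 in WT. Dpt was at 0.960, 0.101 and 5.95, and Islr at 0.531, 0.0959 and 8.08. Tcf21 and Meox2 were listed at 0 in P and WT. Prrx1, a mesenchymal homeobox gene, was at 18.6 in EV and 19.5 in P, Thy1 at 16.1 and 12.4, and the intermediate filament gene Vim at 15.6 and 10.7 (-0.51). Of 20 fibroblast genes with a locus 15 were kept and 0 were 2-fold apart. Pdgfra, the receptor for platelet-derived growth factor on mesenchymal cells, came closest, at 2.55 in EV, 5.78 in P, 6.54 in M, 7.69 in MP and 11.8 in WT (0.93). It passed 2-fold with a pseudocount of 0.1 (1.15) and with the receptor background subtracted (1.05). EV was the lowest of the 5. Contractile and myofibroblast genes had a median of -0.45, with 18 of 21 below 0 and 0 members 2-fold apart, and kept their sign in 8 of 8 alternatives. The actin cross-linker Flna was at 14.7 in EV and 7.79 in P (-0.83), the smooth muscle protein Tagln at 11.4 and 6.62 (-0.70), and Actg2 at 16.5 and 9.81 (-0.70). Acta2, the actin of myofibroblasts, was at 9.64 and 11.2. Collagens (18 kept, median -0.20) had 0 members past 2-fold, and Col27a1 passed it with a pseudocount of 0.1 (1.33). Fbln5, a fibulin of elastic fibres, was at 15.8 in EV, 6.58 in P, 17.7 in M, 9.94 in MP and 11.2 in WT (-1.15). It was the 1 of 33 matrix glycoproteins and proteoglycans past 2-fold, against 2.53% of all kept genes. P was the lowest library for Fbln5. Endothelial markers (1 of 12 kept) were low, with Pecam1 at 0.472 in EV and 0.200 in P.

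In the TGF-beta and BMP system, whose ligands signal through Smad proteins, 1 of 34 kept genes was 2-fold higher and 2 were lower. The shares over all kept genes were 0.663% and 1.86%. Inhbb, a subunit of activins and inhibins, was at 4.37 in EV, 0.942 in P, 4.48 in M, 2.84 in MP and 0.989 in WT (-1.47). Being under 1 unit in P, it was kept by the filter through EV. Fstl1, a secreted protein that binds BMPs, was at 39.0 in EV, 18.9 in P, 27.8 in M, 18.8 in MP and 17.5 in WT (-1.01). Smad6, an inhibitory Smad, was at 3.79 in EV, 9.04 in P, 4.94 in M, 7.37 in MP and 16.4 in WT (1.07). Smad6 was under 2-fold with quantile normalisation (0.98), and Fstl1 was under it in 5 alternatives, down to -0.65 when the loci of a symbol were summed. Of the Id genes, which are targets of BMP signals, Id4 was above EV (3.25 in EV and 6.83 in P, 0.88) and Id3 below (14.7 and 8.64, -0.70). Of the 13 kept chemokines on the list, Ccl17 alone was past 2-fold, against 2.53% of all kept genes. It was at 3.73 in EV, 9.65 in P, 4.56 in M, 6.97 in MP and 2.93 in WT (1.17). Ppbp, a chemokine outside the list, was higher too and is given at the end.

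Genes of epithelial junctions and the skin barrier went in both directions. Jup, which encodes plakoglobin of desmosomes and adherens junctions, was at 0.853 in EV, 4.65 in P, 0.655 in M, 3.68 in MP and 8.01 in WT (1.61). Jam2, a junctional adhesion molecule, was at 0.664 in EV, 3.54 in P, 0.802 in M, 2.44 in MP and 10.0 in WT (1.45). Sprr2a1, a cornified envelope protein, was at 3.03 in EV, 0.0253 in P, 0.423 in M, 0.0327 in WT and listed at 0 in MP (-1.97). With Perp and Sprr1a, 2 of 11 kept epidermal genes were higher and 2 lower, against 0.663% and 1.86% of all kept genes. Jup and Perp were under 1 unit in EV and Sprr2a1 in P, so the filter fixed their direction. The epithelial genes Cdh1 (0.325 in EV and 0.0599 in P) and Epcam (0.305 and 0.0234) were under 1 unit in both libraries.

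Patterning genes were above EV by less than 2-fold. All 8 kept Hox genes, of 24 listed, had a ratio above 0, against 41.9% of all kept genes. Their median of 0.34 took the other sign in 1 of 7 alternatives. Hoxc4 was at 0.930 in EV and 1.70 in P (0.48), Hoxc9 at 4.17 and 5.76 (0.39), and Hoxc8 at 8.86 and 11.8 (0.38). Among ephrins and Eph receptors, which guide cell contacts, 11 of 14 were above 0 with a median of 0.25, led by Ephb3 (2.23 in EV and 4.14 in P, 0.67) and Efna3 (1.31 and 2.45, 0.58), and this median kept its sign in 8 of 8 alternatives. Dlx6, a homeobox gene of limb and jaw, was lower, at 1.88 in EV, 0.290 in P, 0.645 in M, 0.110 in MP and 2.97 in WT (-1.16). For semaphorin signals, which steer cell movement, the receptor gene Plxnb1 was at 1.71 in EV and 4.76 in P (1.09) and the ligand gene Sema3f at 4.27 and 1.40 (-1.14).

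The other libraries were then used to mark the called genes that follow the split of the libraries, with EV and M on the 1 side and P, MP and WT on the other. For 11 of the 74 higher genes (14.9%) and 91 of the 208 lower genes (43.75%), MP and WT were 2-fold from EV on the same side and M was not. Over all 11163 kept genes, MP and WT were both 2-fold higher and M not in 14 (0.125%), and both lower and M not in 100 (0.896%). Of the kept genes, 4.1% were higher and 3.36% lower than EV in WT, 0.206% and 2.02% in MP, and 0.161% and 0.672% in M. All these ratios share the EV library. The 11 higher genes hold Pear1, U90926, Sort1, Igfbp5, Pcsk6, Prl2c2, Jup and Jam2, and the lower ones hold Fgf14, Cd84, H2-K1, H2-Q4, Tspan18 and Fstl1. A further 48 lower genes and 0 higher genes were 2-fold from EV in all of P, MP, WT and M. Passing in M does not make it like P, MP and WT. At Obox3, Luzp4, Rhox8 and Rex2 it lay between EV and those libraries, while at Sprr1a M and WT were alike. Passing in P and WT were 21 higher and 20 lower genes, with Igfbp4, Slco4a1, Axin2 and Nlrc5 among them.

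In P and MP, the libraries labelled with added Prep1, and in neither WT nor M, 4 of the 11163 kept genes were higher and 22 lower. Sox11 and Dact1 were among the higher, although both missed the bound in WT narrowly (0.98 and 0.99). The lower ones included Pknox1, Tap1, Apcdd1 and Ctla2a. Among the 11163 kept genes, 32 were higher in P and in no other library (43.2% of 74) and 18 lower (8.65% of 208). Of these, 17 and 7 were at 5 units or more in either library. On the lower side this class was led by Kcna4, by Mc5r, a melanocortin receptor (2.15 in EV, 0.264 in P, 1.73 in M, 0.858 in MP and 4.08 in WT, -1.32), and by Pde3a, a phosphodiesterase. Pde3a was at 4.84 in EV, 1.38 in P, 4.82 in M, 2.72 in MP and 8.56 in WT (-1.3, status FAIL). For both genes WT was the highest library. MP, labelled with added Prep1 as well, is under the bound at the genes of this class by its definition. By level, without the pseudocount, MP was past 2-fold on the side of P at Perp, Rasl12, Wnt10a, Kcna4, Mc5r and Tap2. It was under 2-fold by level at Anxa8, Mpp3, Prnd, Pde3a and Fbln5. In WT, Rasl12 and Plxnb1 missed the bound narrowly (0.98 and 0.91). Whether P and MP differ at the genes of this class was not tested.

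**Figure D5:**
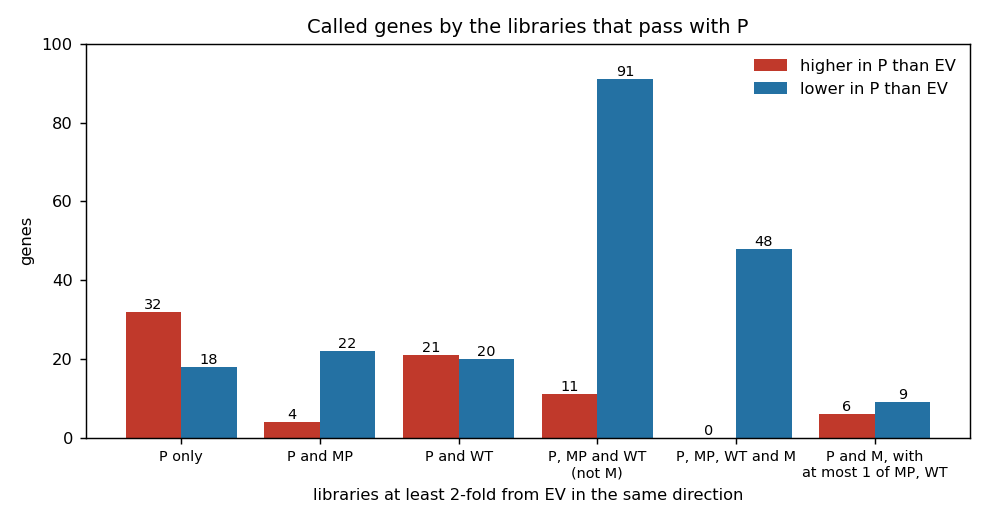
Number of genes at least 2-fold higher (red) or lower (blue) in P than in EV, by the other libraries that are also at least 2-fold from EV on the same side. The tallest bar is the 91 lower genes shared with MP and WT and not with M, while the higher genes are most numerous in P only (32).

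At the 2-fold bounds, Gpr39 (2.11 in EV and 5.24 in P, log2 ratio 1.0) was the last higher gene inside and Llgl2 (2.41 and 5.78, 0.99) the first outside among genes at 5 units or more. On the lower side Fstl1 (-1.01) was the last inside and Psma2 (12.6 and 5.87, -0.98) the first outside. The authors' deposited table called 1 single-gene locus higher in P, Atad2b (FPKM 0 in EV and 1.08 in P, q 1.01e-06), and 9912 lower, on FPKM without this scaling. Among the single-gene loci of that table, 10039 had the status OK, 9643 NOTEST, 3203 FAIL and 9 LOWDATA.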

How the data were processed

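Total RNA of 5 MEF cultures was sequenced per the labels' protocols. Each group is 1 library, assigned by its label. In each of 4 deposited tables EV is paired with another library. Their values are FPKM per locus, per the file headers. TopHat, Cufflinks, Cuffdiff and mm9 appear in the submitters' processing notes; versions, annotation and normalisation are not given there. The p-value and q-value columns that the authors deposited come from the authors' test of 1 library against 1, and the loci they marked significant had q under 0.05. Depth is unknown, so no counting interval was made.

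Loci with 1 symbol were used (37277 without a symbol and 911 joined loci were left out of the counts). Where a symbol had several loci (1154 of 21372 symbols), that with the highest mean log2(FPKM + 1) was taken. Each library was scaled within its own table so that the 75th percentile of the 22290 single-gene loci at 1 FPKM or more in either library was 10. Ratios were log2 with a pseudocount of 1, each library against the EV column of its own table, and a gene counted as higher or lower from 2-fold on. Levels of EV are those of the table with P. Python 3.11.15, numpy 2.4.6, pandas 2.3.3, scipy 1.17.1 and matplotlib 3.10.9 were used, and the scripts were tested on simulated data.

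Named genes were the 20 highest and 20 lowest ratios among genes at 5 units or more in either library, without small RNA, clone and model names, then Pknox1, Meis1 and the markers Igfbp5, Sort1, Pear1, Pcsk6 and Nlrc5. In addition, each list gave its members past 2-fold and those with the largest ratios, and the class high or low in P alone gave its 4 extremes each way. Genes named beyond this rule as relatives, cell type markers or well known members of a list (Jun, B2m, Igf1r, Acta2, Uhrf1, Psmb10 and the like) were added with their values known. The comparison, its members and the 59 gene lists were chosen with earlier results of these data known, so nothing here is independent of them. Alternatives changed the pseudocount, the filter on low values, the scaling, the treatment of several loci, the test status used and the rule for the split. Some genes that the naming rule covers are not reported here.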

Additional observations from a re-analysis of the deposited data

Results flagged for a closer look

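Loci outside the single-gene set were examined in the same way. Of 911 loci that join several genes 800 were kept, and 4 were 2-fold or more above EV in P (0.5%) and 13 below it, against 0.663% above EV among the genes compared. The joined locus of Brca1 and Rdm1, a DNA repair pair, was at 6.24 in EV and 14.4 in P (log2 ratio 1.09). The locus of Mir30a and Mir30c-2 was at 1.48 in EV and 4.90 in P (1.25), while a separate locus of Mir30c-2 alone was among the lower genes, at 1.88 and 0.249. AA465934 with AI450353 (1.15) and Snora36b with Mir664 (1.08) completed the 4.

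Of 37277 loci without a gene symbol 21046 were kept, and 17 were 2-fold or more above EV (0.0808%) and 15977 (75.9%) below it. Their median was 1.05 in EV and 0 in P, and 59.0% were listed at 0 in P. Both kinds of locus are given here because some of them were above EV outside the gene set, and neither share was larger than that among the genes compared.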

How the results depend on the processing

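The counts moved with the processing, and 0 of the 178 genes followed through the alternatives changed direction on scaled values; other named genes were not followed. Of 74 higher and 208 lower genes, 153 and 384 were found with a pseudocount of 0.1, 43 and 57 with genes kept at 5 units or more, and 12 and 20839 with the values as deposited, where the median of all kept genes was -3.37. Lower genes numbered 110 with the receptor background subtracted and 107 with status OK only. The 102 genes that follow the split of EV and M became 24 with genes kept at 5 units or more, 65 with quantile normalisation, 54 with the receptor background subtracted and 56 with status OK only. The remaining counts stayed within 1.5 times. Among scaled alternatives the median of all kept genes lay between -0.20 without a filter and 0.07 with status OK only.

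Sort1 ranged from 1.81 to 2.61, Igfbp5 from 1.76 to 2.00, Axin2 from -1.53 to -1.18 and Nlrc5 from -2.0 to -1.46. Ratios near the bound (Pknox1, Tap2, Trim25, Fstl1, Slco1a6, Smad6, Dlx6, Prlr, H2-Q7, Rspo2, Fosb, Sema3f, H2-K1 and Vmn2r82) were under 2-fold in 1 or more alternatives. In the other direction Klf2, Pdgfra, Col27a1, Tslp, Itga4 and Chad passed 2-fold with a pseudocount of 0.1, and Smo with summed loci. Genes with status FAIL have no value with status OK only. No paired analysis was possible because each group holds 1 library. Depth is unknown, so a level near 0 in P cannot be separated from an undetected gene.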

Other observations

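Small RNA genes, which the naming rule left out, were called more often than other genes in this pair of libraries. Of 107 kept genes with a small RNA name (microRNAs, small nucleolar RNAs and the like) 18 were at least 2-fold higher in P (16.8%) and 27 lower (25.2%), against 53 (0.516%) and 116 (1.13%) of 10266 genes with other names. All 12 higher genes listed at 0 in EV were of this kind, as were the 12 genes higher as deposited. Of the 27 lower small RNA genes 24 were listed at 0 in P, against 27 of the 116 with other names. A gene at 0 in EV or P was kept through the other library, so the filter fixed its direction. Mir25 and Mir106b, microRNAs of the same cluster, were listed at 0 in EV and stood at 1.10 and 1.43 in P. Snord37 was at 8.19 in EV and 21.6 in P. In the other direction Mir146, Mir137 and Mir429 were at 6.58, 5.56 and 2.99 in EV and listed at 0 in P. These genes are short, and whether the mapped fragments come from the small RNA or its host transcript was not tested. Genes with clone and model names were more often lower (65 of 790, 8.23%) than higher (3, 0.380%).

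Interferon-induced GTPases outside the lists were also lower. Iigp1 stood at 1.97 in EV and 0.0845 in P, Igtp at 4.31 and 1.24, and Irgm2 at 2.69 and 0.740. The class I genes H2-Q5 (3.08 and 0.806) and H2-Q8 (3.01 and 0.822) were lower as well. Among well expressed lower genes were Mif, a cytokine (15.3 in EV and 6.46 in P), the lysosomal gene Psap (21.1 and 9.56), the cathepsin gene Ctse (18.8 and 8.0), and the ubiquitin gene Ubb (8.25 and 3.25). Ppbp, a platelet-type chemokine, was higher (3.64 and 9.46). These genes were chosen after their values were seen.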
